A study of Homo sapiens with 6 samples.

Results

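TOP3B, its scaffold partner TDRD3 and the 3 genes of the fragile X family, FMR1, FXR1 and FXR2, were followed through total RNA-seq of HT1080 cells. The genes were taken by symbol, and all 5 were found among the 35820 rows of the deposited tables. HT1080 is a human fibrosarcoma line. The WT group held 3 libraries of unedited HT1080 cells, and the TOP3BKO group held 3 libraries of the HT1080 line E2-2, in which TOP3B had been disrupted with CRISPR and a guide against exon 2. Both groups grew in the same serum-supplemented DMEM, and the RNA was depleted of ribosomal RNA before directional library preparation. The knockout is 1 line, so the comparison is between that line and the WT cells. Nothing says that the libraries of a group came from separate cultures, so each p-value sets a difference against the spread among 3 libraries a group, which may be technical alone, and the clone cannot be told apart from the genotype. In bulk RNA fewer cells with a transcript and less of it per cell cannot be told apart either.

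TOP3B is a type IA topoisomerase that passes single strands through one another and acts on RNA as well as on DNA. It is held by TDRD3, whose Tudor domain binds methylated arginines on histones, on RNA polymerase II and on RNA-binding proteins, and through TDRD3 it joins FMRP, the product of FMR1. FMRP and its paralogs FXR1 and FXR2 bind mRNAs through KH domains and an arginine-glycine-rich region and control their translation and transport, best known in neurons. Loss of FMRP causes fragile X syndrome.

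The coding part of the targeted exon is shown first, because an edit there sets what gene-level counts can see. In GENCODE v29 both principal TOP3B transcripts have the same exon 2, of 168 bases on the minus strand of chromosome 22 from 21975640 to 21975807 (GRCh38). It holds the start codon, in capitals here, and the first 70 of 2586 coding bases, at 21975640 to 21975709.
TOP3B exon 2, coding part: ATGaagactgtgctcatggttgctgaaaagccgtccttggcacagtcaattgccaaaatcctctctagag
The guide and the edit itself were not analysed here. An edit of a few bases in this exon can end the reading frame without removing the transcript, so a count over the whole gene does not check the label.

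The promoters of TDRD3 and FXR2, the 2 members that lay higher in every TOP3BKO library, are printed beside that of FMR1, the family member whose promoter is best studied. Each is the 250 bases before a RefSeq transcript start (GRCh38.p14), written in the direction of the gene. Capitals mark the matches to 3 motifs searched on both strands: the NRF1 motif (GCGCA, any 1 base, then GCGC), the E-box CACGTG and the GC box GGGCGG.
TDRD3 promoter, chr13:60396207-60396456, plus strand: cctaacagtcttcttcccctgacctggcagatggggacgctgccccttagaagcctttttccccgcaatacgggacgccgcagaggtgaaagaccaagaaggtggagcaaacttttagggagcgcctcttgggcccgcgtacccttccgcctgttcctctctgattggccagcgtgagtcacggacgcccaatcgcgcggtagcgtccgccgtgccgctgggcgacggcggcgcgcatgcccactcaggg
FXR2 promoter, chr17:7614898-7615147, minus strand: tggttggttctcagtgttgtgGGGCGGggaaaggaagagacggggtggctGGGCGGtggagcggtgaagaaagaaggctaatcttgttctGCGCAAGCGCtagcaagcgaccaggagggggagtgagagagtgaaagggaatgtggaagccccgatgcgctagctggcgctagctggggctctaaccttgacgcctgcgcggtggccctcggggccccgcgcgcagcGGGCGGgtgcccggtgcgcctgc
FMR1 promoter, chrX:147911669-147911918, plus strand: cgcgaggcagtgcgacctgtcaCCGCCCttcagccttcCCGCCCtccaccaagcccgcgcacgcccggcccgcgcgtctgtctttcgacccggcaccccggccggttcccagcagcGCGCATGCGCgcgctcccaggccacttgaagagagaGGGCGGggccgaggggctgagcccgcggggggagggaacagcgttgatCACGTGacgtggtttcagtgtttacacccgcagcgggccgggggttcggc
The FMR1 window held an NRF1 match at -134 to -125, an E-box at -50 to -45 and 3 GC boxes, counted from the transcript start. The FXR2 window held an NRF1 match at -160 to -151 and 3 GC boxes, and the printed TDRD3 window held none of the 3 motifs. The window of a second RefSeq start of TDRD3 overlapped annotated exons by 41 of 250 bases and was not printed. Among 35116 RefSeq promoter windows of the same length, 5.07% held the NRF1 motif, 6.34% the E-box and 42.6% the GC box. Motifs were counted separately where they overlapped. A match describes letters in the window and is no evidence of binding.

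The libraries held 17919106 to 20475280 estimated counts. Knockout replicate 3 stood apart: over 6456 genes above a mean log2 CPM of 4, the SD of its log2 differences from the other 2 knockout libraries was 0.615 to 0.641, against 0.24 between those 2 and 0.27 to 0.33 within WT. CPM is the count scaled to the TMM-normalized library size. Among 9 mesenchymal markers 7 were at 1 CPM or more in every library, with the vimentin gene VIM at a median of 11400 CPM, and THY1 had a single count in all. Among 10 colon epithelial markers, checked because the series text once names HCT116, KRT20, CEACAM5 and CDX2 had 0 counts in all 6 libraries and EPCAM at most 0.295 CPM, while 4 were at 1 CPM or more in every library, KRT8 at 82.4 to 99.9 CPM.

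None of the 5 genes passed an adjusted p of 0.05 between the knockout line and WT in edgeR's quasi-likelihood test, where 7.84% of the 13965 genes tested passed, 3.21% higher and 4.63% lower. FXR2 was at 2.38 times and TDRD3 at 1.30 times the WT level, while TOP3B, FMR1 and FXR1 differed by less. At an unadjusted p under 0.05 there were 2 of the 5, TDRD3 and FXR2, both higher, against 24.7% of all genes and 11.9% in that direction. DESeq2 called 1, FXR2, against 15.8% of all genes, and limma-voom called none, against 7.98%. The 3 knockout libraries lay on 1 side of the 3 WT libraries for TDRD3, FXR1 and FXR2, a separation that 33.6% of all genes showed, 16.5% with the knockout higher and 17.1% with it lower. No other fit called a member. Those fits called 8.09% of all genes with DESeq2 size factors in edgeR, 7.96% with upper quartile scaling, 7.99% with library size alone, 9.01% with a filter of 1 CPM in 3 libraries and 4.02% with no filter. limma-trend on log2 RPKM called 7.74% with a pseudocount of 1 and 7.51% with 0.1. Leaving out WT replicate 1, 2 or 3 gave 1.94%, 1.55% and 1.78%, and leaving out knockout replicate 1, 2 or 3 gave 2.71%, 2.5% and 13.2%.

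**Figure D1:**
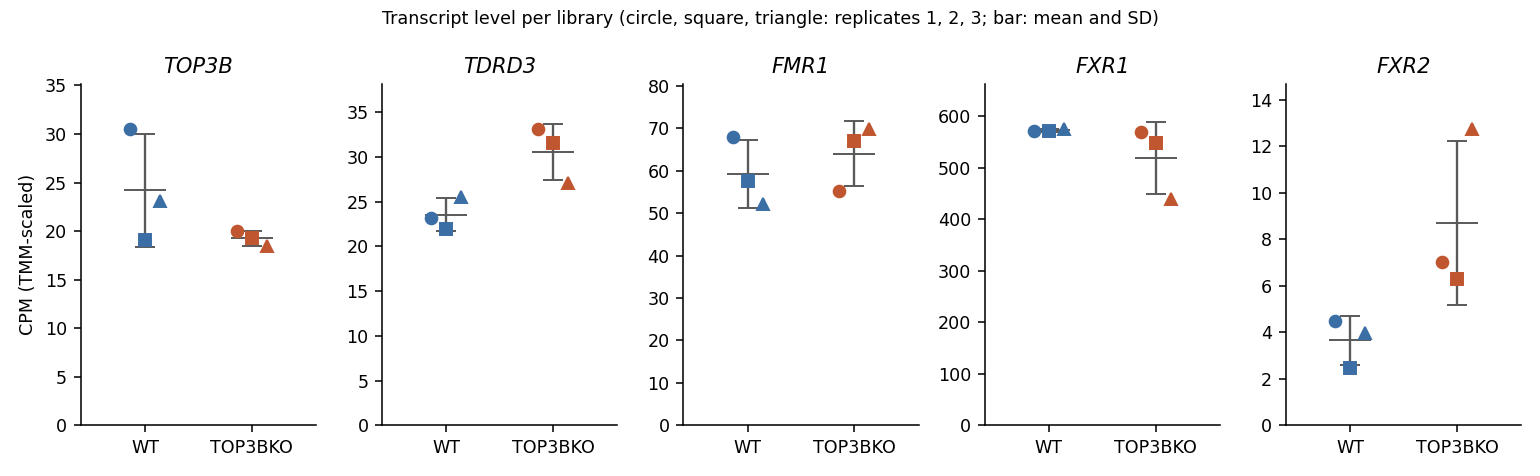
Each panel plots the TMM-scaled CPM of 1 gene, from 0, in the 3 WT (blue) and 3 TOP3BKO (orange) libraries, with circles, squares and triangles for replicates 1, 2 and 3 and a bar for the mean and SD. TDRD3 and FXR2 lie higher in every knockout library, and knockout replicate 3 is the highest for FXR2, at 12.7 CPM, and the lowest for FXR1, at 440.1 CPM.

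TOP3B itself (ENSG00000100038.19, minus strand of chromosome 22, 21957025 to 21982816, GRCh38) stayed within the WT range or just under it in the knockout. It was at 30.5, 19.1 and 23.1 CPM in WT replicates 1 to 3 and at 20.02, 19.3 and 18.5 CPM in knockout replicates 1 to 3. The groups overlapped, since WT replicate 2 lay among the knockout libraries, and WT replicate 1 was the high one. The log2 fold change was -0.33 (95% interval -0.79 to 0.13, edgeR adjusted p = 0.342), and -0.14 without WT replicate 1. The coefficient of variation was 24.0% in WT, where counting error alone gives 4.66%, and 4.02% in the knockout, where it gives 5.11%. The processed pseudogene TOP3BP1, on the same chromosome from 22223187 to 22224566, had 4 counts in WT replicate 2 and 0 in the other 5 libraries, so few reads were assigned to this copy. An antisense gene annotated across part of TOP3B, AC245452.1, was not analysed here. Of 19 genes tested within 1 Mb of TOP3B 1 was lower in the knockout by edgeR's test and none higher, with a median log2 fold change of -0.06. Within 5 Mb 3 of 97 were higher and 13 lower, and over the 333 other genes tested on chromosome 22 there were 7 higher and 24 lower, against 3.21% higher and 4.63% lower of all genes.

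TDRD3 (ENSG00000083544.14, plus strand of chromosome 13, 60396457 to 60573878), the Tudor scaffold that carries TOP3B, was at 23.2, 21.9 and 25.5 CPM in WT and at 33.2, 31.5 and 27.1 CPM in the knockout. Every knockout library lay above every WT library, with knockout replicate 3 the nearest to WT. The log2 fold change was 0.38 ± 0.14 (SE), with a 95% interval of 0.05 to 0.71 (edgeR adjusted p = 0.155). Without knockout replicate 3 it was 0.45, with an edgeR adjusted p of 0.0624. Over 248 other genes tested on chromosome 13 the median log2 fold change was 0.19, against 0.05 over all genes. Of these 248, 7 were higher and 12 lower by edgeR's test, against 3.21% higher and 4.63% lower of all genes. The only gene tested within 1 Mb, DIAPH3, which encodes an actin-nucleating formin, was at 71.8 ± 4.37 and 105 ± 17.0 CPM (SD, n = 3 each), a log2 fold change of 0.55. What the TDRD3 value shares with the rest of the chromosome was not tested.

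FMR1 (ENSG00000102081.14, plus strand of the X chromosome, 147911951 to 147951125), the gene of FMRP, was at 68.0, 57.5 and 52.2 CPM in WT and at 55.2, 67.0 and 69.8 CPM in the knockout. The groups overlapped over nearly their whole range. The log2 fold change was 0.11, with a 95% interval of -0.24 to 0.47 (edgeR adjusted p = 0.681), or between 0.846 and 1.38 times the WT level. It was 0.04 without knockout replicate 3. FMR1-IT1, a non-coding RNA annotated on the same strand within an FMR1 intron, had 16, 18 and 43 counts in the WT libraries against 43, 26 and 48, and its groups overlapped too. The antisense FMR1-AS1, whose annotated span reaches into the promoter window shown above, had 1 count in each WT library and 3, 5 and 2 in the knockout. Those counts are too few for a comparison, and no source used here says whether reads were counted by strand.

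FXR1 (ENSG00000114416.17, plus strand of chromosome 3, 180868141 to 180982753), the paralog best known for its part in muscle, had the most counts of the 5. It was at 570.9, 572 and 576 CPM in WT and at 570.7, 548 and 440.1 CPM in the knockout. The knockout libraries were all below WT, replicate 1 only just and replicate 3 by far the most. CCDC39, which is annotated across part of FXR1, was not analysed here. The WT libraries had a coefficient of variation of 0.45%, where counting error alone gives 0.953%. The log2 fold change was -0.14 ± 0.11 (SE, edgeR adjusted p = 0.464), and -0.04 without knockout replicate 3, so the lower mean rested on that library.

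FXR2 (ENSG00000129245.11, minus strand of chromosome 17, 7591230 to 7614871) was the least counted of the family and the one with the largest fold. The WT libraries gave it 79, 49 and 81 estimated counts and the knockout libraries 143, 125 and 249, or 4.50, 2.48 and 3.98 CPM against 7.03, 6.29 and 12.7 CPM. Each knockout library lay above each WT library. The 95% exact Poisson intervals, which cover counting error only, were 120.5 to 168.5 for the 143 counts of knockout replicate 1 and 219 to 282 for the 249 of replicate 3, so these replicates differed beyond counting error. The log2 fold change was 1.25 ± 0.37 (SE), a fold of 2.38 with a 95% interval of 1.30 to 4.36 (edgeR adjusted p = 0.0920). Without knockout replicate 3 it was 0.86, with an edgeR adjusted p of 0.124. DESeq2 gave a log2 fold change of 1.24 with an adjusted p of 0.0246, and the adjusted p ranged from 0.0246 to 0.243 over the alternatives.

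FXR2 overlaps a gene at each end. SHBG, the gene of a sex hormone carrier protein, lies on the opposite strand from 7613946 to 7633383 and overlaps the first bases of FXR2. It had 2, 7 and 7 counts in the WT libraries against 14, 16 and 16, higher in each knockout library as FXR2 was, with a log2 fold change of 1.47 and an edgeR adjusted p of 0.134. MPDU1, which overlaps the other end of FXR2 on the opposite strand, was at 71.7 ± 3.45 and 71.2 ± 3.83 CPM (SD, n = 3 each). Since the use of strand in the counting is not given, reads from FXR2 and from either of these genes cannot be told apart where they overlap, and how many reads fell there was not tested. Of 69 genes tested within 1 Mb of FXR2 2 were higher and 2 lower by edgeR's test. Of all genes 3.21% were higher and 4.63% lower. The median log2 fold change of the 69 was 0.10, against 0.05 over all genes.

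**Figure D2:**
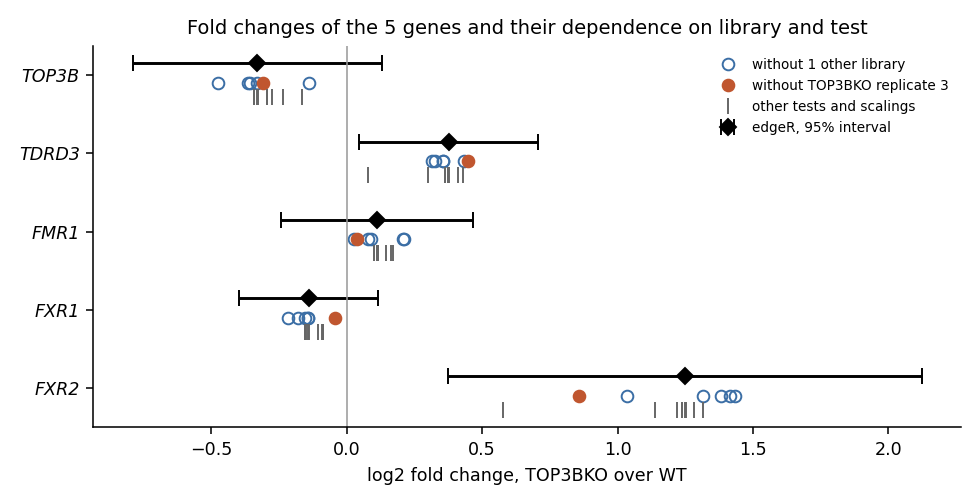
Log2 fold changes, knockout over WT, of the 5 genes: black diamonds are edgeR estimates with 95% intervals, open circles leave out 1 library, orange circles leave out knockout replicate 3, and ticks are other tests and scalings, of which the log2(RPKM + 1) scale compresses low genes. The FXR2 interval runs from 0.37 to 2.12 and the TDRD3 interval from 0.05 to 0.71, while those of TOP3B, FMR1 and FXR1 include 0.

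Levels can be compared between genes only per length, and the order depended on the length used. The length implied by the deposited counts and RPKM was 11.8 kb for TOP3B and 6.82 kb for FXR2, close to the mean genomic span of their annotated transcripts, introns included, of 11.8 and 6.77 kb. It was 117 kb for TDRD3 against 123 kb, 43.9 kb for FXR1 against 42.0 kb and 32.8 kb for FMR1 against 23.2 kb. On the deposited RPKM scale the WT order was FXR1 at 12.8 ± 0.220, TOP3B at 2.01 ± 0.491, FMR1 at 1.77 ± 0.234, FXR2 at 0.525 ± 0.157 and TDRD3 at 0.197 ± 0.0177 (SD, n = 3). TOP3B and FMR1 overlapped in that order, from 1.56 to 2.53 and from 1.58 to 2.03, and the others did not.

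Per kb of spliced principal transcript the order changed. FXR1 led with 65.8 ± 0.296 CPM per kb in WT, followed by FMR1 at 13.8 ± 1.86, TDRD3 at 9.14 ± 0.702, TOP3B at 7.80 ± 1.87 and FXR2 at 1.24 ± 0.354 (SD, n = 3). TDRD3 and TOP3B overlapped, from 8.51 to 9.90 and from 6.14 to 9.82, so on this scale the topoisomerase and its scaffold did not differ beyond their spread. That overlap rested on WT replicate 1, where TOP3B was at 9.82 CPM per kb. In the other WT libraries TOP3B lay below the TDRD3 range. In the knockout they did not overlap, with TDRD3 from 10.5 to 12.9 and TOP3B from 5.95 to 6.44 CPM per kb. On both scales FXR1 was first and well above the other 4. TDRD3, with the longest span, moved from last to the third place. How many of the reads came from introns was not tested.

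**Figure D3:**
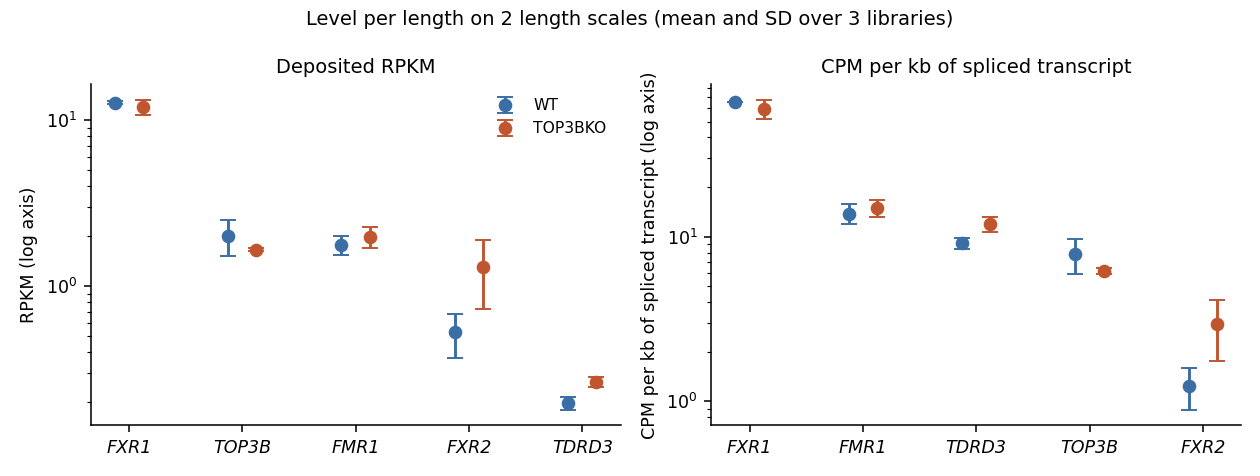
Mean and SD over 3 libraries of each gene's level per length in WT (blue) and TOP3BKO (orange), on log axes, as the deposited RPKM (left) and as CPM per kb of spliced transcript (right), with genes in the WT order of each scale. FXR1 leads on both, at 12.8 RPKM and 65.8 CPM per kb in WT, and TDRD3 is last on the left only.

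Ratios taken within a library depend on scaling only through the prior count, and gene length cancels when they are compared between groups. TOP3B to TDRD3 stood at log2 ratios of 0.39, -0.20 and -0.15 in WT and at -0.73, -0.71 and -0.55 in the knockout, with no overlap. The difference was -0.68, or 1.6-fold less TOP3B per TDRD3 (exact permutation test, 2-sided, p = 0.10, which is the smallest that 3 against 3 libraries can give, and adjusted p = 0.133 over 4 ratios). Without WT replicate 1 the difference was -0.49. In the knockout means TOP3B was lower and TDRD3 higher, though the TOP3B groups overlapped. Without WT replicate 1 the edgeR log2 fold changes were -0.14 for TOP3B and 0.355 for TDRD3.

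Within the fragile X family the ratios of FXR2 to both of its paralogs separated the groups. Both ratios share the FXR2 values, which separated the groups on their own. What share of all gene pairs would separate was not tested, for these ratios or for TOP3B to TDRD3. Of single genes 33.6% did. FXR2 to FXR1 was at log2 ratios of -6.96, -7.79 and -7.14 in WT against -6.32, -6.42 and -5.10, a difference of 1.35 (exact permutation p = 0.10, adjusted p = 0.133). It was 0.92 without knockout replicate 3. FMR1 to FXR2 was at 3.89, 4.48 and 3.68 in WT against 2.96, 3.39 and 2.44, a difference of -1.08 with the same exact permutation p. FMR1 to FXR1 overlapped between the groups, at -3.07, -3.31 and -3.46 against -3.37, -3.03 and -2.65, a difference of 0.26 (exact permutation p = 0.40, adjusted p = 0.40). Without knockout replicate 3 that difference was 0.08. None of the 4 ratios passed, and an exact permutation test of 3 against 3 libraries can pass none.

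**Figure D4:**
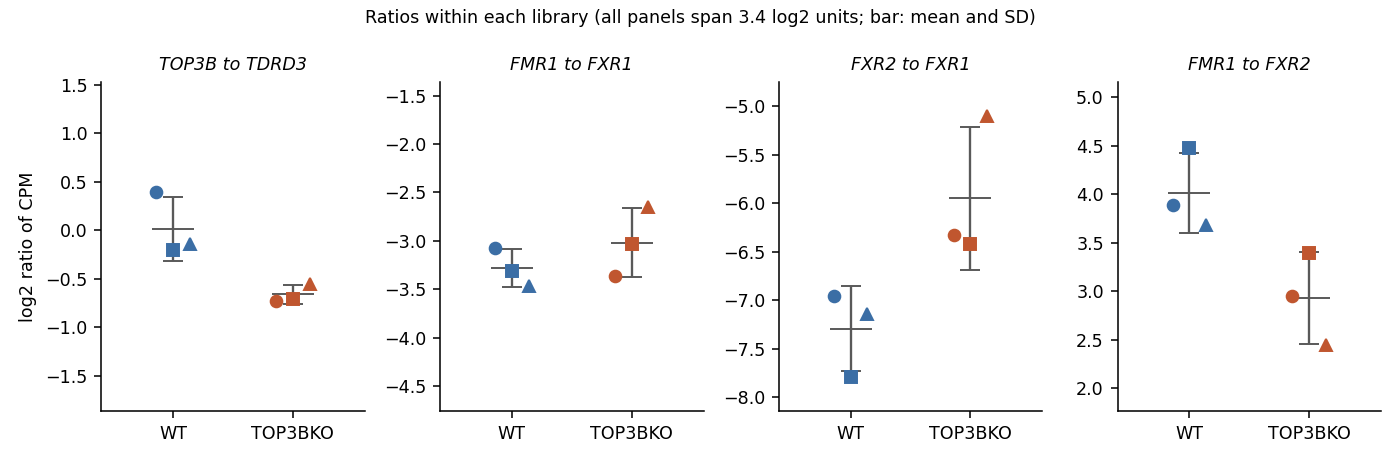
Log2 ratios of CPM within each library for 4 gene pairs, WT in blue and TOP3BKO in orange, with circles, squares and triangles for replicates 1, 2 and 3 and a bar for the mean and SD; all panels span the same log2 range. The groups separate for TOP3B to TDRD3, FXR2 to FXR1 and FMR1 to FXR2 and overlap for FMR1 to FXR1.

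Partners of FMRP in RNA granules, such as translation repressors and stress granule proteins, were followed next. Of 33 tested, 2 were higher and 3 lower in the knockout by edgeR's test and 28 did not pass, a share of 15.2% against 7.84% of all genes, with a median log2 fold change of -0.17 against 0.05. EIF4E, the cap-binding protein of translation initiation, was at 145, 144 and 123 CPM in WT and 88.6, 95 and 84.7 CPM in the knockout. It fell by 0.62 on the log2 scale (edgeR adjusted p = 0.0198). TIAL1, an RNA-binding protein of stress granules, fell from 415 ± 6.85 to 313 ± 10.1 CPM, and G3BP2, a stress granule nucleator, from 229 ± 15.1 to 171 ± 6.52 CPM (SD, n = 3 each, edgeR adjusted p = 0.0213 and 0.0349). YBX3, a cold-shock domain protein, rose from 210 ± 10.7 to 295 ± 14.4 CPM (edgeR adjusted p = 0.0193), and STAU1, which binds double-stranded RNA, from 445 ± 4.32 to 552 ± 28.4 CPM with an edgeR adjusted p of 0.0497, which was 0.0518 in limma-voom. The count was 0 without WT replicate 1 or 2 or knockout replicate 1 or 2, and 1 (EIF4E) without WT replicate 3. It was 6 without knockout replicate 3, where the median was 0.01, against 0.01 over all genes. Of all genes, 1.94%, 1.55% and 1.78% passed without WT replicate 1, 2 or 3. Without knockout replicate 1, 2 or 3 the shares of all genes were 2.71%, 2.5% and 13.2%. Scaling moved the split of calls: it was 3 higher and 2 lower with library size alone, and 1 and 3 with DESeq2 size factors in edgeR. Those scalings called 7.99% and 8.09% of all genes. CYFIP1 and CYFIP2, the FMRP-binding proteins that also sit in the actin-regulating WAVE complex and were picked here after their values were seen, were at 543 ± 20.3 and 484 ± 34.6 CPM and at 250 ± 10.9 and 311 ± 12.2 CPM, with edgeR adjusted p of 0.270 and 0.0579.

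Arginine methyltransferases write the mark that TDRD3 reads, and other Tudor proteins share its fold. Of 20 such genes tested 2 rose, none fell and 18 did not pass (10.0% called, against 7.84% of all genes). The median log2 fold change was 0.16, against 0.05 over all genes. Without knockout replicate 3 it was 0.05, against 0.01 over all genes. The called share is near that of all genes. TDRKH, a Tudor protein of the mitochondrial surface that serves the piRNA pathway in germ cells, was at 4.38, 1.88 and 2.61 CPM in WT and 13.9, 10.8 and 19.5 CPM in the knockout. All knockout libraries were above WT, and the fold was 4.99 (edgeR adjusted p = 0.0179). CLNS1A, the chloride channel regulator pICln that directs PRMT5 to Sm proteins, rose from 213 ± 3.51 to 296 ± 18.5 CPM (SD, n = 3 each, edgeR adjusted p = 0.0190). The count was 0 without WT replicate 2 or 3 or knockout replicate 1, where 1.55%, 1.78% and 2.71% of all genes passed. It was 1 (TDRKH) without WT replicate 1 or knockout replicate 2, where 1.94% and 2.5% of all genes passed. Without knockout replicate 3 it was 3, against 13.2% of all genes. PRMT1 and CARM1, enzymes that methylate the tails TDRD3 binds and that were picked after their values were seen, were at 376 ± 14.9 and 330 ± 26.4 CPM and at 195 ± 2.72 and 181 ± 23.2 CPM, and neither passed.

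Partners listed for TDRD3 and TOP3B, including the exon junction complex and the R-loop helicase DHX9, gave no call. None of the 11 tested passed in edgeR's test, against 7.84% of all genes. An unadjusted p under 0.05 was reached by 4 of the 11, against 24.7% of all genes, and DESeq2 called CASC3 alone, against 15.8%. Their median log2 fold change was 0.34 against 0.05 over all genes, and 0.07 against 0.01 over all genes without knockout replicate 3. The most abundant were DDX5, an RNA helicase, at 1320 ± 47.4 and 1400 ± 12.3 CPM, and RBM8A, a core of the exon junction complex, at 177 ± 18.5 and 168 ± 40.8 CPM (SD, n = 3 each). DHX9, named after its value was seen, was at 26.7, 29.1 and 36.5 CPM in WT and 40.6, 36.9 and 107 CPM in the knockout. Every knockout library lay above every WT library, replicate 2 only just, as in 16.5% of all genes. Knockout replicate 3 raised the group mean of DHX9 the most. CASC3, of the exon junction complex and named for the DESeq2 call, was at 28.4, 29.4 and 21.4 CPM in WT and 37.8, 41.7 and 52.5 CPM in the knockout, with an edgeR adjusted p of 0.0613. Without knockout replicate 3 edgeR called 1, MAGOHB, against 13.2% of all genes.

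mRNAs reported as targets of FMRP, its paralogs or the TOP3B complex gave a single call. Of 21 tested 1 fell, none rose and 20 did not pass (4.76% called, against 7.84% of all genes and 4.63% lower). The median log2 fold change was -0.03, against 0.05 over all genes. It was 0.02 against 0.11 over all genes with library size alone, and -0.07 against 0.01 without knockout replicate 3. The gelatinase MMP9 was the one that fell, with 76.0, 77.2 and 73.0 CPM in WT and 11.4, 12.5 and 15.5 CPM in the knockout, a fall of 5.74-fold (edgeR adjusted p = 0.00102), and it passed with each library left out in turn. The amyloid precursor gene APP, the most abundant, was at 2780 ± 64.2 and 2920 ± 38.4 CPM, and DLGAP4, a synaptic scaffold gene, at 408 ± 15.3 and 421 ± 58.4 CPM (SD, n = 3 each). PTK2, the focal adhesion kinase gene and a reported target of the TOP3B complex, named after its value was seen, was at 347 ± 13.4 and 278 ± 14.2 CPM with an edgeR adjusted p of 0.0585. PTK2 was the second call without knockout replicate 3, where 13.2% of all genes were called. Transcript counts do not measure translation.

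**Figure D5:**
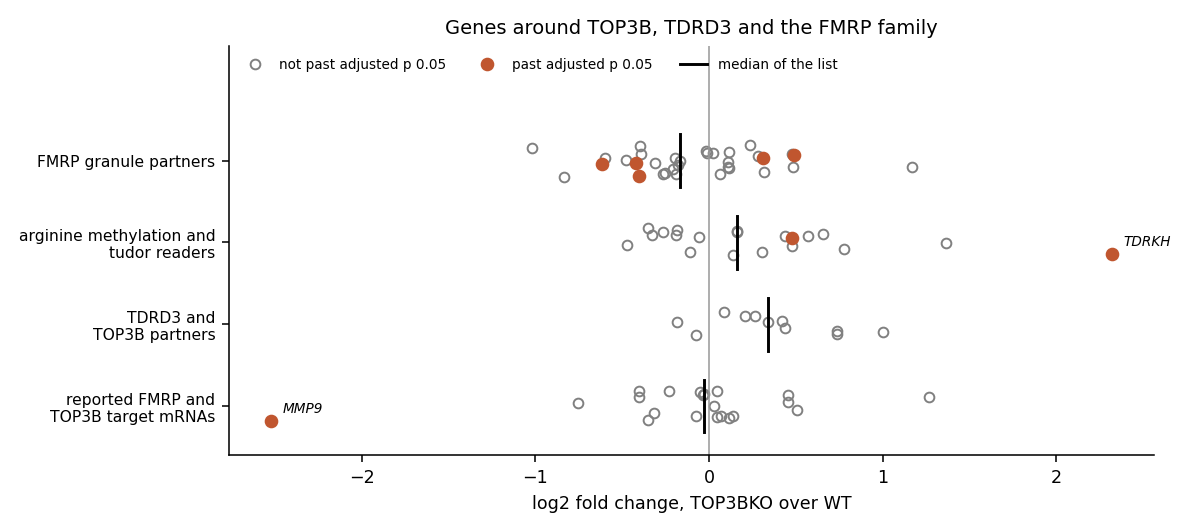
Log2 fold changes, knockout over WT, of the tested genes in 4 lists, with filled orange points past an adjusted p of 0.05 in edgeR's test, open points not past it, vertical jitter for visibility and a black line at each median. TDRKH at 2.32 and MMP9 at -2.52 lie farthest out, and the medians lie between -0.17 and 0.34.

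For each of the 5 genes, the 3 genes with the most similar log2 CPM over the 6 libraries were taken from 9510 other tested genes above a mean of 5 CPM, as a description without a test. With TOP3B these were GSTT2, 2.02 Mb away on chromosome 22, PUS10 and WIPF1 (Pearson's r 0.976, 0.968 and 0.966). For TDRD3 they were MED9, BRF1 and the pseudogene MRPS31P5 on the same chromosome (r 0.996, 0.995 and 0.991). EIF2B4, MTG2 and CD320 followed FMR1 (r 0.989, 0.984 and 0.983), and CLHC1 and DDIT3 were among those of FXR1 (r 0.999 and 0.997). RNASEK, 0.579 Mb away on chromosome 17, and CMC1 were among those of FXR2 (r 0.993 and 0.992). All points share the same 6 libraries, and likeness was common: r was over 0.95 for 8, 87, 11, 370 and 117 genes with TOP3B, TDRD3, FMR1, FXR1 and FXR2. FXR1, CLHC1 and DDIT3 were each lowest in knockout replicate 3, at 440.1, 3.53 and 3.22 CPM. FXR2, RNASEK and CMC1 were each highest there, at 12.7, 10.5 and 25.5 CPM. How far that library sets these r values and counts was not tested.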

How the data were processed

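Total RNA of 3 WT and 3 TOP3B knockout libraries of HT1080 cells was sequenced. The deposited estimated counts per gene are whole numbers, and the deposited RPKM values are the authors' length-scaled values. Salmon 1.10.1 and hg19 are named in the submitters' processing notes, with no role, and the annotation and strand setting are not given in the sources used here. One row named differently in the 2 tables was left out. Positions are from GENCODE v29 (GRCh38), and promoters from RefSeq (GRCh38.p14), matched by symbol for all 5 genes. Windows that overlapped annotated exons of the gene, in part or in full, were not printed.

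Counts were filtered with filterByExpr and tested over 13965 genes with edgeR 4.0.16 (TMM, quasi-likelihood F test, Benjamini-Hochberg adjustment, threshold 0.05) in R 4.3.3, with knockout over WT as the fold. Standard errors and 95% intervals were derived from the F statistic. Library totals were 17919106 to 20475280, and the counting error of a gene is that of its own mean count. Ratios used log2 CPM with a prior count of 2 and exact permutation tests over libraries. Alternatives were DESeq2 1.42.0, limma 3.58.1 (voom, and trend on log2(RPKM + 1) or log2(RPKM + 0.1)), 3 other scalings, 2 other filters, a prior count of 0.5 and each library left out.

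The members, the 4 gene lists and the tests were chosen with earlier results of these data known. Named genes are the 5 members, up to 3 called genes per list and direction with a mean of at least 1 CPM, the 2 most abundant where fewer than 2 were called, the 3 genes most like each member, and annotated overlaps and copies; others are marked. Of the genes most like a member, 2 are not reported here. Knockout labels carry no replicate numbers, so these follow the order of deposition.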

Additional observations from a re-analysis of the deposited data

How the results depend on the processing

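The 5 fold changes kept their direction and stayed above an adjusted p of 0.05 under each alternative run, except FXR2, which passed in DESeq2 at a log2 fold change of 1.24. Without 1 library each, they ranged from -0.48 to -0.14 for TOP3B, 0.31 to 0.45 for TDRD3, 0.03 to 0.21 for FMR1, -0.22 to -0.04 for FXR1 and 0.86 to 1.43 for FXR2. The 4 ratios kept their direction, and on log2(RPKM + 1) the low FXR2 and TDRD3 were compressed. List counts moved more. DESeq2 called 8 granule partners, 4 methylation and Tudor genes, 1 partner of TDRD3 and TOP3B and 3 targets. It called 15.8% of all genes, against 7.84% in edgeR's test. Without a filter on low counts 3 granule partners were called, against 4.02% of all genes. Without 1 library each, the counts ranged from 0 to 6 granule partners and 0 to 3 methylation and Tudor genes. They ranged from 0 to 1 partners of TDRD3 and TOP3B and from 1 to 2 targets. The share of all genes called in those fits ranged from 1.55% to 13.2%. RBM8A and DLGAP4, which passed in no fit, changed sign within -0.299 to 0.027 and -0.029 to 0.146, at 0.024 and 0.027 for RBM8A without knockout replicate 1 or 2 and -0.029 and -0.003 for DLGAP4. The cause of these moves was not tested. The labels link no WT library to a knockout library, so no paired analysis was run. With 49 to 249 counts a library, FXR2 had the largest counting error of the 5, at 12.0% in WT and 7.62% in the knockout. Its coefficient of variation between libraries was larger still, at 28.6% and 40.6%.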
